A study of Homo sapiens with 4 samples.

Results

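The transcripts described here encode 4 KMT2 histone methyltransferases, KMT2A, KMT2B, KMT2C and KMT2D. These 4 genes alone are called the family below, and no other histone methyltransferase gene was examined. The members are the m5C peaks that overlap each gene's hg19 window by 1 bp or more on the gene's strand. They number 14 of the 8919 peaks in both deposited lists, with 3 of 3177 in replicate 1 and 11 of 5742 in replicate 2. A peak at the same position in both lists is counted in each, which applies to a KMT2B peak. KMT2B held 7 of the 14, KMT2D 6, KMT2C 1 and KMT2A none. The windows came with the rule and were not read from an annotation, and they hold introns as well as exons. The genes were chosen by the positions of peaks in these same lists, so the peak counts are a description and no test is given.

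5-methylcytosine (m5C) is a methylated RNA base placed by enzymes such as NSUN2, and m5C MeRIP-seq locates it by sequencing RNA pieces bound by an m5C antibody beside input RNA. A peak is a stretch of the genome with more reads in the antibody-bound RNA than in the input. The cells were PANC-1, an established human pancreatic cancer line, and all 4 samples (2 immunoprecipitated and 2 input) came from cells pretreated with extracellular vesicles of cancer-associated fibroblasts, which are stromal cells of tumours. Every group thus shared the vesicle treatment, and its effect could not be compared. Each of the 2 peak lists joins the immunoprecipitated and the input sample that carry its replicate number. Separate cultures are not mentioned in the labels, so differences between replicates may be technical. The files hold no read counts or input levels, so depth is unknown and a gene with few peaks cannot be told apart from a transcript with few reads.

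These 4 KMT2 proteins methylate lysine 4 of histone H3 through a SET domain at their C-terminal end. Each works in a complex with the shared subunits WDR5, RBBP5, ASH2L and DPY30. KMT2A and KMT2B are the closest pair, bind menin and act mainly at promoters, where they add the trimethyl mark. KMT2C and KMT2D form the other pair, associate with the demethylase KDM6A and add the monomethyl mark at enhancers. Both KMT2C and KMT2D are recurrently mutated in human tumours, pancreatic cancer among them. The older names are ambiguous: MLL2 and MLL4 are each listed as synonyms of both KMT2B and KMT2D in the RefSeq gene table.

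**Figure D1:**
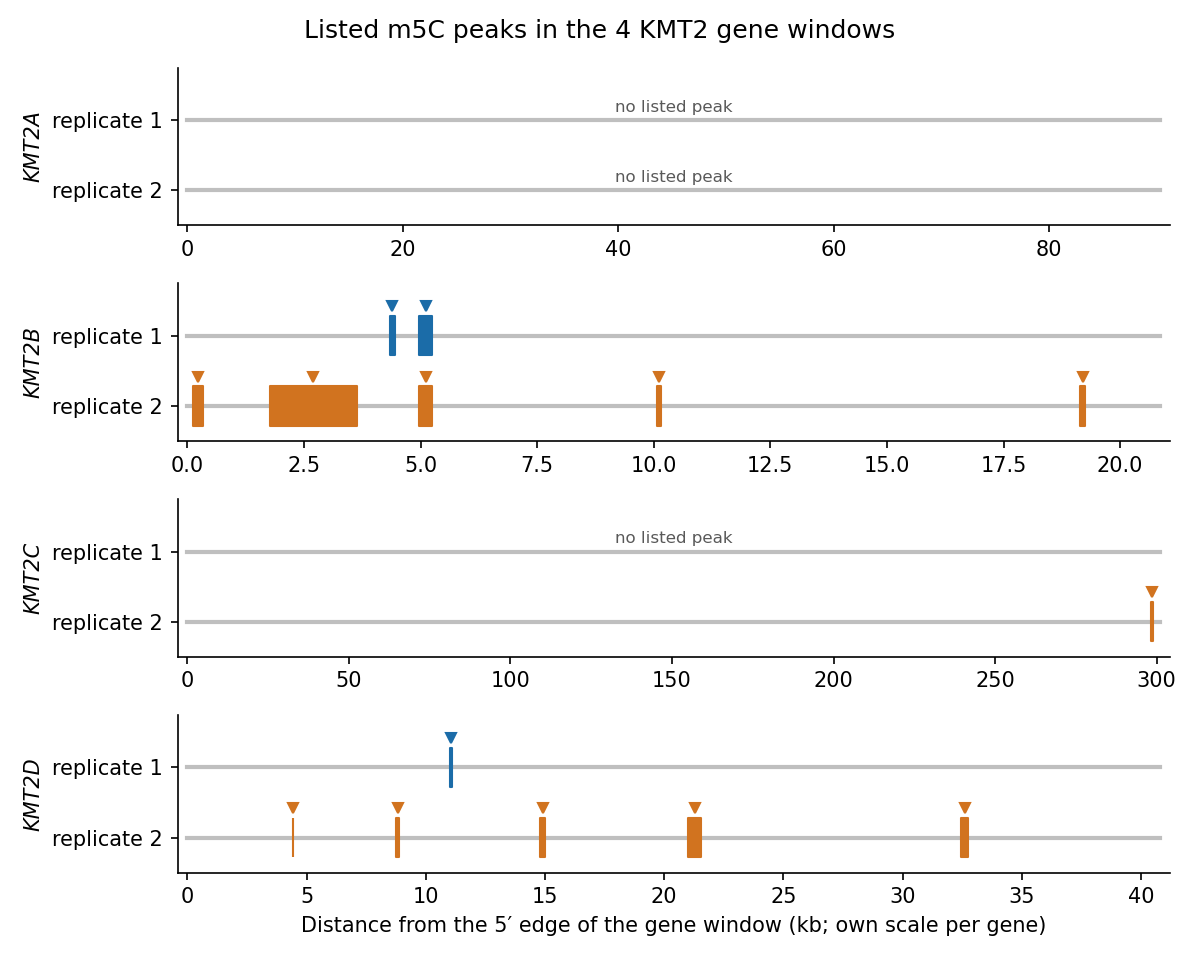
Positions of the listed m5C peaks along the windows of KMT2A, KMT2B, KMT2C and KMT2D, with distance from the 5′ edge of each window in kb on the horizontal axis (a separate scale per gene) and the replicates as rows; coloured boxes are peaks, outlined so that the narrowest stay visible, and a triangle marks each one. KMT2B and KMT2D carried 5 peaks each in replicate 2, and KMT2A had none in either replicate.

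KMT2B (gene identifier 9757, a promoter-acting H3K4 methyltransferase) had 2 peaks in replicate 1 and 5 in replicate 2. Its window (hg19 chromosome 19, plus strand, 36208921 to 36229779) is 20.9 kb long, the shortest of the 4. In replicate 1 the first peak ran from 36213261 to 36213374, was 114 bp wide and had a score of 3100, the value that 1638 peaks of that list share. In that list 17 peaks scored higher, up to 3228.29, so 3100 was not its maximum. Whether 3100 is a default of the scoring is not given in the sources used here, so a score of 3100 may not rank a peak above others. The second ran from 36213897 to 36214176, was 280 bp wide and had a score of 512.64, with 20.9% of the list scoring lower. These peaks lay 522 bp apart, between 4.34 and 5.26 kb from the 5′ edge, and the rest of the window held no replicate 1 peak.

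In replicate 2 the KMT2B peaks were spread over nearly the whole window. The peak nearest the 5′ edge began 118 bp into the window, from 36209039 to 36209255, with a score of 362.68 and a width of 217 bp. The next was the widest of the family at 1879 bp, from 36210686 to 36212564, with a score of 549.03. Only 3 of the 5742 replicate 2 peaks were wider, while 74.6% of that list scored lower, so this peak stood out by width more than by score.

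The remaining replicate 2 peaks of KMT2B had lower scores than these. They ran from 36213897 to 36214176 (280 bp, score 75.44), from 36218999 to 36219072 (74 bp, score 91.75) and from 36228071 to 36228164 (94 bp, score 68.62). The last of these ended 1.62 kb before the 3′ edge. The 2 higher scores thus lay in the first 3.64 kb of the window and the 3 lower ones beyond it, and no more than 13.6% of the list scored below any of those 3. Peaks covered 2544 bp (12.2%) of the KMT2B window in replicate 2 and 394 bp (1.89%) in replicate 1, and the wide peak made up 1879 bp of the former.

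The only overlap between replicates in the family was in KMT2B, where the peak from 36213897 to 36214176 had the same first and last base in both lists. Of the 435 overlapping pairs in the lists, 36 were identical at both ends (8.28%), with widths of 34 to 338 bp and a median of 146 bp. The KMT2B pair, at 280 bp, was wider than all but 2 of these. Its scores were 512.64 in replicate 1 and 75.44 in replicate 2, on scales that were not matched between lists, and replicate 1 had the higher score in 31 of the 36 identical pairs and in 359 of all 435. By listed score the shared peak was the lower of the 2 replicate 1 peaks, the other being at 3100, and the fourth of 5 in replicate 2. The 3100-score peak of replicate 1 did not overlap any replicate 2 peak, like most of its list, of which 13.6% did. It lay in a stretch free of replicate 2 peaks, 696 bp after the end of the wide peak and 522 bp before the start of the shared one.

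**Figure D2:**
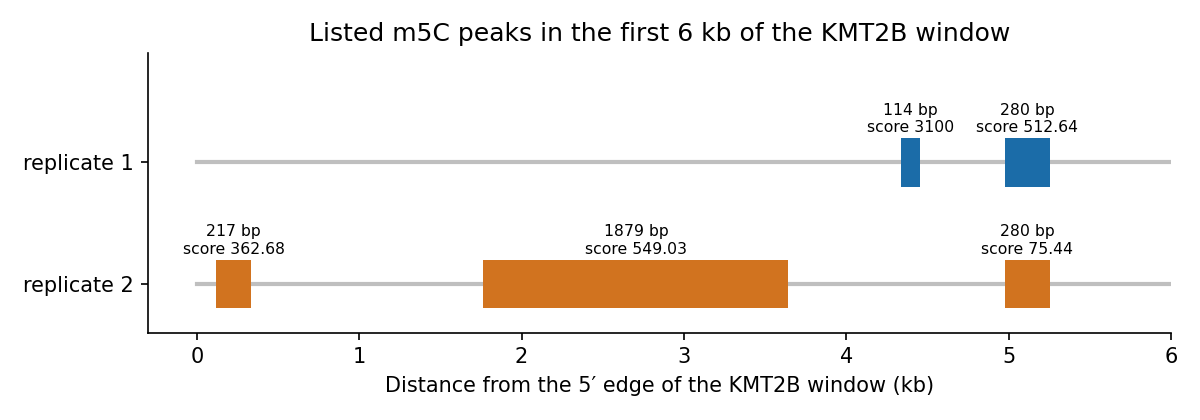
The first 6 kb of the KMT2B window, with distance from the 5′ edge in kb on the horizontal axis and the replicates as rows; boxes are peaks drawn to scale, each with its width and deposited score. The 280 bp peak stands at the same place in both rows, with scores of 512.64 and 75.44, and the 1879 bp peak stands only in the replicate 2 row.

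KMT2A (gene identifier 4297), the closest relative of KMT2B and the gene broken in MLL-rearranged leukaemias, had no listed peak in either replicate and on either strand. Its window (chromosome 11, plus strand, 118307205 to 118397539) is 90.3 kb long. The nearest listed peaks on its strand lay 89.2 kb beyond the 3′ edge in replicate 1 (score 3100) and 623.1 kb beyond it in replicate 2 (score 510.1). On the 5′ side the nearest were 1153.6 and 1197.6 kb away. The absence holds for the lists only: the numbers in the peak names increase along each chromosome, and between the listed peaks of either strand that flank the window 47 numbers of replicate 1 and 62 of replicate 2 were not listed. Whether any of those unlisted peaks lay within KMT2A cannot be read from the files.

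KMT2D (gene identifier 8085, an enhancer-acting H3K4 methyltransferase) had 1 peak in replicate 1 and 5 in replicate 2, and none overlapped between replicates. Its window (chromosome 12, minus strand, 49412758 to 49453557) is 40.8 kb long. The replicate 1 peak, from 49442442 to 49442552, was 111 bp wide, had the common score of 3100 and lay 11.0 kb from the 5′ edge. The replicate 2 peaks on either side of it, from 49444669 to 49444802 and from 49438555 to 49438748, were 2116 and 3693 bp away. Replicate 1 therefore had its KMT2D peak inside the stretch that replicate 2 peaks spanned, but at a position of its own. Most listed peaks had no overlap either: 13.6% of replicate 1 peaks and 7.49% of replicate 2 peaks overlapped the other list. The lack of overlap is thus not particular to KMT2D.

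Read from the 5′ edge, the replicate 2 peaks of KMT2D began at 4.41, 8.76, 14.81, 21.0 and 32.45 kb. The first, from 49449125 to 49449144, was 20 bp wide with a score of 54.55, and only 1.39% of its list scored lower. The second had a score of 449.49 over 134 bp, and the third a score of 274.97 over 194 bp. The fourth, from 49432007 to 49432558, had the highest score of the family in that replicate. That score was 1226.5, which is 4.36 times the list median, and 93.4% of the list scored lower. It was also 552 bp wide, and 97.0% of the list was narrower. The last, from 49420804 to 49421105, had a score of 320.87 over 302 bp. The highest peak of KMT2D thus lay near the middle of its window (52.1% of the way from the 5′ edge), whereas the highest of KMT2B in replicate 2 was centred 13.0% of the way along. Peaks covered 1202 bp (2.95%) of the KMT2D window in replicate 2 and 111 bp (0.272%) in replicate 1.

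KMT2C (gene identifier 58508), the partner of KMT2D in sequence and function, had no peak in replicate 1 and 1 in replicate 2. Its window (chromosome 7, minus strand, 151832010 to 152133090) is the longest of the family at 301.1 kb. The peak ran from 151834382 to 151834723, was 342 bp wide and had a score of 124.3, with 22.2% of the list scoring lower. It lay at the far 3′ end, 298.37 kb from the 5′ edge and 2.37 kb from the 3′ edge. No replicate 1 peak of that strand came nearer than 929287 bp. Parts of KMT2C have near-identical copies elsewhere in the genome, in the BAGE family. How the authors placed reads that match several loci is not given in the sources used here. Whether this peak lies in a copied part was not tested.

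Across the family the 2 genes with the shorter windows carried 13 of the 14 peaks. In replicate 2 the density was 2.40 peaks per 10 kb of window in KMT2B, 1.23 in KMT2D, 0.0332 in KMT2C and 0 in KMT2A. In replicate 1 it was 0.959 in KMT2B, 0.245 in KMT2D and 0 in the others. KMT2B came before KMT2D in both lists, but on few peaks. In replicate 1 it had 2 peaks against 1, and in replicate 2 both had 5, so only window length set the order there. These densities are per kb of genome, introns included, and not per kb of messenger RNA, whose length was not used here. Each pair of close relatives was split, with KMT2B at 7 peaks against none in KMT2A and KMT2D at 6 against 1 in KMT2C.

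The spacing of peaks can be set beside that of the whole lists, as a description only, since peak positions chose the genes. In replicate 2 the cutoff was 5 peaks, the count that KMT2B and KMT2D each had. The shares thus do not measure how unusual these genes are. Of the 5742 replicate 2 peaks, 15 (0.261%) opened a stretch as long as the KMT2B window with 5 or more peaks on the same strand. For a stretch as long as the KMT2D window, 28 (0.488%) did so. KMT2B and KMT2D themselves are counted among these, and only the peak that opens a stretch is counted, not those that follow it. In replicate 1, 485 of 3177 peaks (15.3%) opened a stretch of the KMT2B length with at least 2 peaks, the number KMT2B had there. Peak numbers were most closely spaced at the 5′ end of KMT2B. Its first 3 replicate 2 peaks have consecutive numbers, as do both replicate 1 peaks, while 3 and 2 numbers were left unlisted in the next gaps. In KMT2D 8 numbers were left unlisted between the 5 replicate 2 peaks. Consecutive numbers made up 11.0% of steps between neighbouring listed peaks of a chromosome in replicate 2 and 21.6% in replicate 1.

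Beside the whole lists, KMT2 scores of replicate 2 lay on both sides of the median, and 2 of its widths lay near the upper end. In replicate 1 the 3 scores were 3100, 3100 and 512.64, and 2 of 3 equalled 3100, as did 51.6% of the list. In replicate 2 the lowest score was 54.55, the median 274.97 and the highest 1226.5, beside a list median of 281.27. There 5 of 11 lay at or above the list median, which 50% of the list did. No KMT2 peak of replicate 2 had the score 3100, held by 0.627% of that list. Widths in replicate 2 had a median of 217 bp beside 141 bp for the list, and 7 of 11 were wider than the list median, as were 49.8% of all. The widest were the 1879 bp peak of KMT2B, which 3 peaks of the list exceeded, and the 552 bp peak of KMT2D, which 168 exceeded. Of the 11, only the 20 bp peak of KMT2D was under 50 bp, beside 15.6% of the list. In replicate 1 the 3 widths were 111, 114 and 280 bp beside a list median of 167 bp, so 1 of 3 was wider than that median (49.8% of the list) and none was under 50 bp (13.1% of the list).

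**Figure D3:**
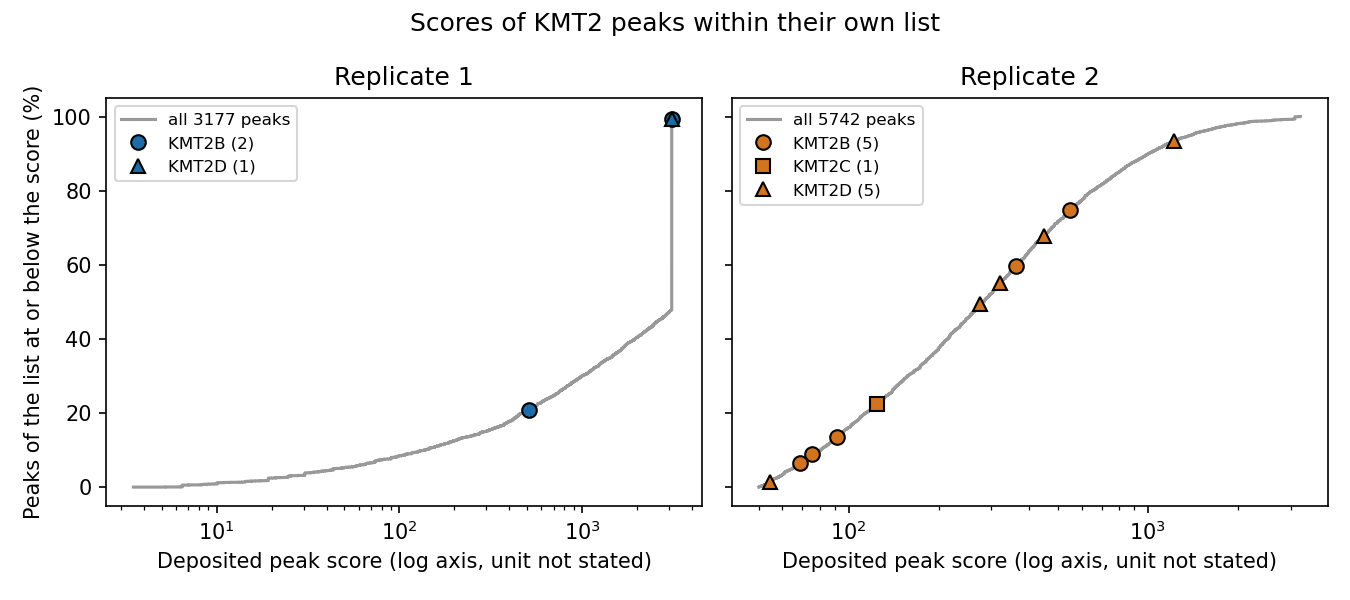
Cumulative share of peaks (vertical axis, percent of the list at or below a score) against the deposited score on a log axis, for replicate 1 and replicate 2; the grey line is the whole list and the symbols are the KMT2B, KMT2C and KMT2D peaks. The replicate 2 symbols run from 54.55 to 1226.5, while the list reaches 3233.06, and 2 of the 3 replicate 1 symbols coincide at 3100.

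One of the 3 KMT2 peaks of replicate 1 overlapped a replicate 2 peak, beside 13.6% of that list. From replicate 2 it was 1 of 11, beside 7.49%, and it is the same KMT2B pair seen from the other side. With so few peaks, several of them from 1 transcript, nothing is read from these shares. Replicate 2 had 3.67 times as many KMT2 peaks as replicate 1, where its whole list was 1.81 times as long.

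The edges of the windows decided few peaks, but replicate 1 had only 3. Windows extended by 1 kb gave 4 peaks in replicate 1 and 11, as before, in replicate 2. Just outside, replicate 1 had a same-strand peak of 171 bp with a score of 3100 from 36207770 to 36207940, 980 bp before the KMT2B window, on the side where the RefSeq order places ZBTB32, also a plus-strand gene. Replicate 2 had a 17 bp peak with a score of 236.48 from 49459198 to 49459214, 5640 bp beyond the 5′ edge of KMT2D, on the side of RHEBL1. Neither was assigned to a gene, and the replicate 1 count and density of KMT2B leave out the peak before its window. The peak just inside was that of KMT2B 118 bp from the 5′ edge, with a score of 362.68. The gene lengths in the RefSeq table, of another build, were 20876 bp for KMT2B and 41817 bp for KMT2D beside windows of 20859 and 40800 bp, so the edges of the gene models need not coincide with those of the windows.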

How the data were processed

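Each of the 2 lists has 6 columns (chromosome, start, end, peak name, score, strand). The score comes from the authors' deposited lists, its scale is not stated, and within a list it served to describe, order and filter peaks. It was set across lists, unscaled, only for overlapping pairs. The submitters' processing notes name the hg19 build and the trimming tool cutadapt 1.9.3. Peak names begin with MACS, a peak caller. Not given in the sources used here are the aligner, the annotation, the thresholds and how peaks were limited to messenger RNA. Thresholds set differently for the replicates would alter which KMT2 peaks are listed. The lowest listed score was 3.51 in replicate 1 and 50.13 in replicate 2, on scales that were not matched. The highest number in a peak name was 35902 in replicate 1 and 123960 in replicate 2. Whether the thresholds differed was not tested. Peaks were listed per replicate, per the labels, not on pooled samples.

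Starts were read as 0-based and are printed 1-based. Peaks on the gene's strand overlapping a window by 1 bp or more were taken, and the same minimum of 1 bp, with equal strand, defined a peak as shared between lists. Python 3.11.15, numpy 2.4.6 and pandas 2.3.3 were used, and the overlap step was tested on simulated data. All 4 genes and all their peaks are named, and they and the lists were chosen with earlier results of these data known. Gene names, synonyms, lengths and neighbours came from the RefSeq table of GRCh38.p14, which matched 4 of 4 symbols. Its coordinates served only to order neighbouring genes, and no window or peak position came from it. The strand of ZBTB32 came from a separate promoter table. A planned description of other H3K4 methylation genes needed an hg19 annotation and was left out, and peak sequences are not shown because no hg19 genome was used here. Alternatives changed the strand rule, window edges, score and width filters, list length and overlap rule.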

Additional observations from a re-analysis of the deposited data

How the results depend on the processing

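Score filters lowered the count of KMT2 peaks in replicate 2 about as they shortened the whole list. When peaks below their list's median score were dropped, replicate 2 kept 5 of its 11 KMT2 peaks, beside 50% of the list. Their median score was 449.49 in place of 274.97, and 0 overlapping pairs were left. The replicate 2 list was also shortened, by score, from 5742 to the 3177 peaks that replicate 1 had, and 6 of the 11 were kept. Again 0 pairs were left, since the KMT2B peak that the replicates share scored 75.44 in replicate 2. Peaks summed over both lists numbered 14, and 3 to 11 when 1 replicate was left out. Genes with a peak in either list numbered 3, and 2 to 3 when 1 replicate was left out. The single pair was found with a 50% reciprocal overlap, centres within 100 bp, gaps of up to 200 bp, either strand, wider windows and peaks of 50 bp or more. Windows extended by 1 kb gave 4 peaks in replicate 1 and 11 in replicate 2, and by 10 kb gave 4 and 12. No paired analysis was possible because each peak list joins the immunoprecipitated and input sample of a replicate and no result comes from a test. Depth is unknown, so whether an unlisted KMT2 peak was below detection cannot be told.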
